A study of Mus musculus with 72 samples.

Results

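The genes described here are 8 members of the Lin28, Trim71, Hmga and Igf2bp group, an oncofetal set of RNA-binding and chromatin proteins: Lin28a, Lin28b, Trim71, Hmga1, Hmga2, Igf2bp1, Igf2bp2 and Igf2bp3. They were chosen by name, out of 45321 genes with a transcript in the files, and each was read from the transcript that held the most counts over all libraries. All 8 passed the filter on low counts, which kept 18273 genes. The messenger RNA came from mouse embryonic stem cell lines that carry or lack Nup133, a subunit of the Y-complex that forms the scaffold of the nuclear pore, to compare the genotypes before and during differentiation towards neuroectoderm.

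Controls were the line HM1 (Nup133+/+, 40 chromosomes, XY) in 2 biological replicates and 1A4, derived from a blastocyst (Nup133+/+, Sox1gfp/+, 40 chromosomes, XY). Knockout lines were 14 (Nup133-/-, 40 chromosomes, XY) and 19 (Nup133-/-, likely 40 chromosomes, XY), both made from HM1 with CRISPR/Cas9, and the blastocyst-derived line 319 (Nup133merm/merm, Sox1gfp/+). Line 319 is XX with 42 chromosomes and carries an extra chromosome 8 and an extra chromosome 12, so within its background genotype, sex chromosomes and these gains cannot be told apart. None of the 8 genes lies on chromosome 8, 12, X or Y. Each knockout line stood for 1 sample per day, so every one of the 6 groups of genotype and day had 3 biological samples. Day 0 cells had grown in serum with LIF on mitomycin-treated feeder fibroblasts, which were removed by letting them settle for 20 minutes. Day 2 cells had been in N2B27 medium without LIF on gelatin, and day 3 cells had then received 1 µM all-trans retinoic acid for 24 h. Only the labels say that the HM1 samples are biological replicates, and p-values measure the spread between these samples.

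Mature let-7 microRNAs accumulate as cells leave the embryonic state and repress messenger RNAs that pair with their seed. LIN28A and LIN28B are the paralogous RNA-binding proteins that block the maturation of let-7 precursors, and their own messages are let-7 targets, which makes the circuit double-negative. TRIM71 (also called LIN41) is a ubiquitin ligase and RNA-binding repressor, HMGA1 and HMGA2 are architectural chromatin proteins that bind AT-rich DNA, and the IGF2BP proteins bind messages such as Igf2 and stabilize or localize them. In the embryo these genes are high in pluripotent and early progenitor cells and most decline as tissues mature.

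The sequences that join the 8 genes are the let-7 seed and its match. The 9 distinct mature let-7 and miR-98 sequences of the 5p arm in the RefSeq table all carried the same seed. The 3 printed show how the remainder varies, with bases 2 to 8, the seed, in capitals, and miR-125b, whose seed is found in several of the same genes, is given beside them.
mmu-let-7a-5p: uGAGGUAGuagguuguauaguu
mmu-let-7g-5p: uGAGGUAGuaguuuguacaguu
mmu-miR-98-5p: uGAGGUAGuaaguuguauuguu
mmu-miR-125b-5p: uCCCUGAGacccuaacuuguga

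The let-7 motif searched was CTACCTC, the reverse complement of the seed, on the transcript strand of the annotated 3′ UTR, and it was called an 8-base match where an A followed it (CTACCTCA). It was found in 8 of 8 members and in 9.727% of the 15174 tested protein-coding genes with a 3′ UTR. At least 2 matches were found in Lin28a (2), Lin28b (4), Trim71 (4), Hmga2 (4) and Igf2bp1 (4), against 1.193% of those genes, while Hmga1, Igf2bp2 and Igf2bp3 held 1 each. Long 3′ UTRs hold more matches: among 3′ UTRs within 20% of the length of that of Igf2bp1 (6337 bases), 35.012% had at least 1 and 8.393% at least 2, and among those near that of Hmga1 (1172 bases) 8.811% had at least 1. For Hmga2 (3014 bases) these shares were 16.835% and 2.43%. The genes are textbook let-7 targets, so the matches describe the members and are no test of them, and a match of letters is not by itself a working site. Poly(A) libraries do not measure mature microRNAs, and let-7 itself was not measured.

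One match per gene shows the context, 15 bases before the motif and the base after it, with the match in capitals. Positions are on mm10, and all lie in the 3′ UTR of the gene.
Lin28a, chr4:134005189-134005211, minus strand: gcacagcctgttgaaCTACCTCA
Lin28b, chr10:45381022-45381044, minus strand: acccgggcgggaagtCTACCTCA
Trim71, chr9:114512472-114512494, minus strand: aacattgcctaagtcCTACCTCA
Hmga1, chr17:27563277-27563299, plus strand: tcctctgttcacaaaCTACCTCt
Hmga2, chr10:120364224-120364246, minus strand: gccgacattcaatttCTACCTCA
Igf2bp1, chr11:95961778-95961800, minus strand: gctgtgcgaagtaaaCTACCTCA
Igf2bp2, chr16:22059473-22059495, minus strand: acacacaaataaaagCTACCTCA
Igf2bp3, chr6:49086787-49086809, minus strand: tgcatttttactcaaCTACCTCA

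The matches shown for Lin28b and Hmga2 lie close behind the stop codon, starting at bases 36 and 58 of their 3′ UTRs, and both genes had an 8-base match only there, their other 3 being 7-base matches. Trim71 differed in that all 4 of its matches had 8 bases, in a pair at bases 166 and 262 and a pair at bases 3591 and 3617. Hmga1 was the only member with no 8-base match. The miR-125 motif, CTCAGGG on the transcript strand, was found once each in Lin28a, Lin28b, Trim71 and Igf2bp3, and in 14.545% of the tested 3′ UTRs. Among 3′ UTRs within 20% of the length of theirs the shares were 26.434%, 31.939%, 36.577% and 21.616% in the same order. In no member did it overlap a let-7 match.

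**Figure D1:**
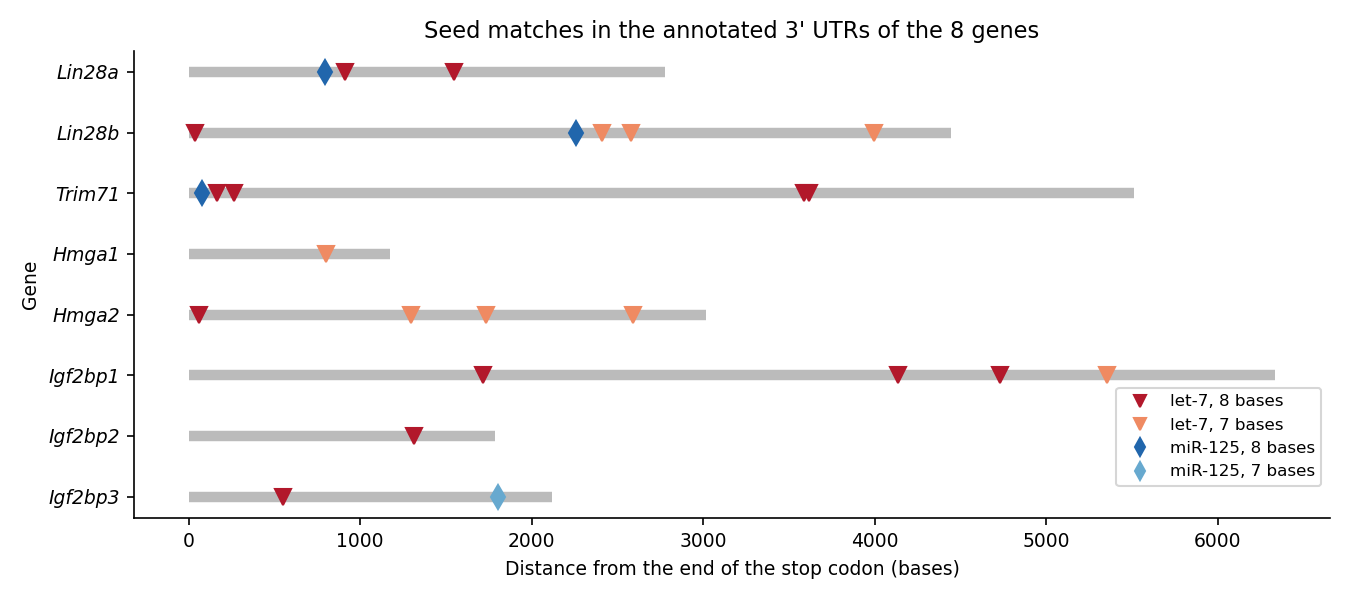
Seed matches in the 3′ UTRs of the 8 genes, with distance in bases from the end of the stop codon on the horizontal axis and 1 gene per row; grey bars are the annotated 3′ UTRs, triangles let-7 matches and diamonds miR-125 matches, darker where 8 bases match. Lin28b, Trim71, Hmga2 and Igf2bp1 each hold 4 let-7 matches and Igf2bp1 has the longest bar, 6337 bases.

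Depth ranged from 16.5 to 54.4 M gene counts per sample. The smallest library, line 19 at day 2, stood apart: its scaling factor (TMM, which corrects library size for composition) was 0.806, against 1.001 to 1.043 in the other day 2 samples. Several results that rest on this library are given with and without it, and the others include it. Nup133 itself was lower in the knockout groups, with log2 differences of -3.19, -3.28 and -3.40 at days 0, 2 and 3 (SE 0.263, 0.265 and 0.266, adjusted p = 2.1e-05, 3.2e-05 and 2e-05, edgeR quasi-likelihood test with Benjamini-Hochberg adjustment). Pluripotency markers (7 genes, among them Pou5f1, Nanog and Zfp42) summed to 4051 to 5788 CPM (gene counts per 1000000, on scaled library sizes) at day 0 and 278.5 to 619.8 at day 3, and neural progenitor markers (6 genes, among them Sox1 and Pax6) to 62.41 to 176.1 and 317.6 to 987.3, in the direction the labels give. Transcripts of fibroblasts, the feeder cell type, summed over the 11 tested genes of a list of 12 to 91.76 to 388.9 CPM over all samples. A change is named as called where its adjusted p was below 0.05, and log2 changes are given ± SE or with a 95% interval. These are bulk samples, in which fewer cells of a type and less RNA per cell cannot be told apart.

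Levels between genes are compared as CPM per kilobase of transcript. In the day 0 controls Lin28a (153 ± 20, SD, n = 3) and Hmga1 (146 ± 15) were highest, and their ranges overlapped. Igf2bp1 followed at 90.6 ± 9.3, then Trim71 at 39.8 ± 2.1, Igf2bp2 at 31.3 ± 5.2, Igf2bp3 at 29.6 ± 6.2, Hmga2 at 13.2 ± 1.4 and Lin28b at 8.98 ± 1.3. Neighbours in this order did not overlap, except Lin28a with Hmga1 and Igf2bp2 with Igf2bp3. Igf2bp2 is uncertain on this scale, since the transcript with the most counts (98591) is annotated as a retained intron of 4952 bases and the coding transcript of 3899 bases held 98459. With the coding length its day 0 control level was 39.7, beside that of Trim71. Every member was therefore detected in these bulk day 0 samples, and the less abundant paralogue of each pair, Lin28b and Hmga2, stood lowest. Fibroblast transcripts summed to 161.6 to 334.2 CPM in the same samples, and the part of feeder cells in the levels of the members was not tested.

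By day 3 the order had changed in the middle and at the bottom. Lin28a in the controls stood at 183 ± 24 CPM per kilobase, above Hmga1 (103 ± 32), whose range now overlapped that of Igf2bp1 (83.3 ± 8.0). Igf2bp3 (63.1 ± 3.2) had moved above Igf2bp2 and Trim71, and Lin28b (21.7 ± 1.6) above Hmga2 (15.6 ± 1.1). In the knockout lines at day 3 Lin28a was at 220 ± 9.2 and above all others, and the ranges of every pair of neighbours below Hmga1 overlapped, as did Hmga1 with Igf2bp1. The spread between samples at day 3 differed by gene. The control samples came from 2 lines and the knockout samples from 3, so genotype and number of lines cannot be told apart in this spread. The coefficient of variation was larger in the knockout lines for Hmga2 (36.7%), Igf2bp2 (36.2%), Igf2bp3 (33.9%), Lin28b (30.3%) and Igf2bp1 (14.7%), against 5.11% to 12.3% for these genes in the controls. It was smaller for Lin28a (4.18% against 13.3%), Trim71 (4.24% against 7.83%) and Hmga1 (9.56% against 31.1%). A wide knockout spread was also present at day 2, at 36.5% for Igf2bp3 and 31.9% for Lin28b.

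**Figure D2:**
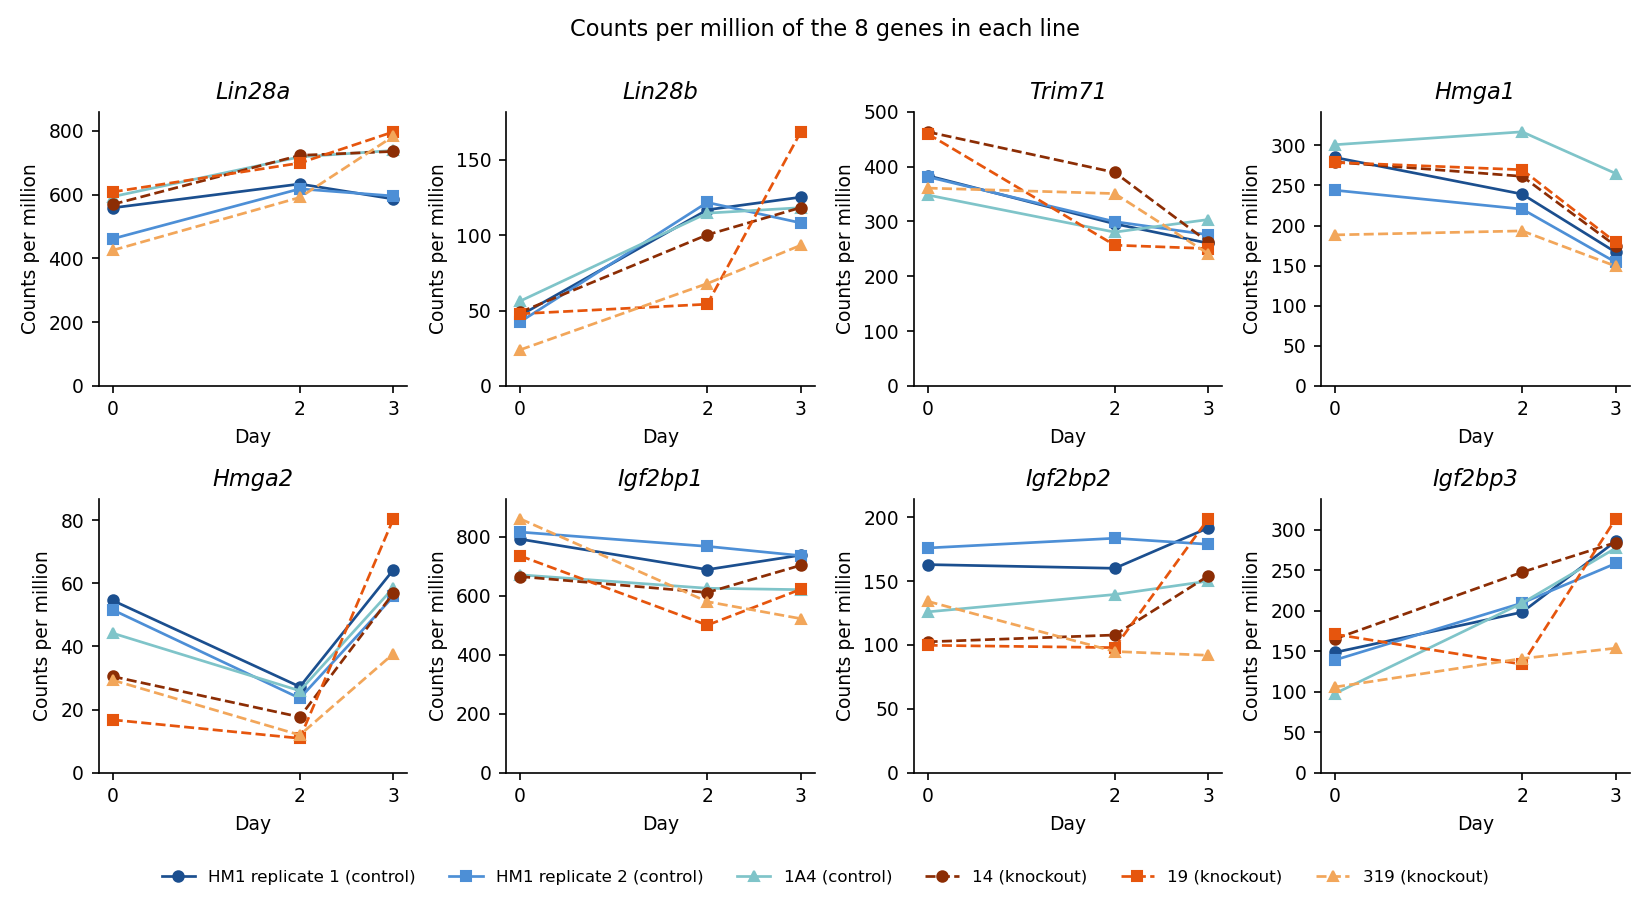
Level of each of the 8 genes in CPM (vertical axis, from 0) by day, with each line of points 1 cell line or replicate; solid blue lines are controls and dashed orange lines knockouts. Hmga2 dips at day 2 in all 6 series, and the control curves of Lin28b lie above the knockout points at day 2 only.

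Both LIN28 paralogues were higher at day 2 than at day 0 in every control series, and only the rise of Lin28b was called. Lin28b was at 46.74, 42.51 and 56.29 CPM at day 0 (HM1 replicates 1 and 2 and 1A4) and at 116.9, 121.8 and 114.7 CPM at day 2. The days did not overlap, and every series was higher by at least 1.021 on the log2 scale. Lin28b rose 2.41-fold (log2 1.27 ± 0.26 SE, adjusted p = 0.0015, edgeR quasi-likelihood test with Benjamini-Hochberg adjustment), while 35.2% of all genes were called at this step and 3 of the 8 members. The next step was not called, at 125.3, 108.2 and 118.3 CPM on day 3 (log2 change 0.00, 95% interval -0.546 to 0.538). Lin28a, several times higher, was at 558.3, 461.3 and 593.5 CPM at day 0 and at 633.2, 617.9 and 718.1 CPM at day 2. These days did not overlap either, and the series were higher by 0.182, 0.421 and 0.275. The step of Lin28a was not called (log2 0.29, interval -0.05 to 0.625), nor was the next (-0.04, interval -0.374 to 0.3). The difference between the paralogues was not tested.

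In the knockout lines Lin28b was at 48.89, 47.85 and 23.92 CPM at day 0 (lines 14, 19 and 319), at 100.3, 54.21 and 67.94 CPM at day 2 and at 118.4, 168.7 and 93.39 CPM at day 3. Line 319 was low at day 0, line 19 was low at day 2 and high at day 3, and line 14 lay closest to the controls. Both steps were called: Lin28b rose by 0.91 ± 0.26 (adjusted p = 0.013) from day 0 to day 2 and by 0.76 ± 0.26 (adjusted p = 0.033, edgeR quasi-likelihood test) from day 2 to day 3, where 35.9% and 33.6% of all genes and 3 members each were called. The first rise was 1.03, 0.18 and 1.49 in lines 14, 19 and 319 taken singly, and its call was lost without line 14 (0.80, adjusted p = 0.086) and when only HM1-derived lines were fitted (0.69, adjusted p = 0.065). The second rise rested on line 19, whose own step was 1.63 against 0.24 in line 14 and 0.46 in line 319. Without line 19 it was 0.33 (adjusted p = 0.35), without only the day 2 library of that line 0.54 (adjusted p = 0.12), and without either HM1 replicate the adjusted p was 0.063 to 0.074. Lin28a was not called at either step in the knockout lines (0.33, interval -0.009 to 0.666, and 0.20, interval -0.136 to 0.539).

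Trim71 was higher at day 0 than at day 3 in all 6 series. In the controls it was at 383.7, 381.5 and 348.3 CPM at day 0, at 295.7, 299.7 and 280.5 CPM at day 2 and at 260.3, 275.7 and 303.5 CPM at day 3. Day 0 lay above both later days without overlap, but neither step was called (-0.35, interval -0.663 to -0.028, adjusted p = 0.085 and -0.06, edgeR quasi-likelihood test). The knockout lines 14, 19 and 319 had 463.6, 460.1 and 360.9 CPM at day 0, 389.5, 256.7 and 350.9 CPM at day 2 and 262.4, 250.5 and 241.1 CPM at day 3. In the knockout lines the last step was a called fall (-0.41 ± 0.15, adjusted p = 0.048). That call was lost without any control sample, without line 14 or 319, with the replicate block (adjusted p = 0.065) and in the fit of HM1-derived lines only (-0.34, adjusted p = 0.18), and without the day 2 library of line 19 the value was -0.58 (adjusted p = 0.00062). In line 19 most of the fall came a step earlier, with -0.84 from day 0 to day 2 against -0.25 and -0.04 in lines 14 and 319.

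Hmga2 had the widest swing of the 8 genes. In the controls it was at 54.56, 51.59 and 44.20 CPM at day 0, at 27.25, 23.60 and 25.98 CPM at day 2 and at 64.27, 55.84 and 58.57 CPM at day 3. The 3 days did not overlap, with day 2 lowest and day 3 highest. It fell by 0.96 ± 0.26 (adjusted p = 0.0088) and then rose by 1.22 ± 0.26 (adjusted p = 0.0033, edgeR quasi-likelihood test), and it was the only member called in the controls from day 2 to day 3, where 21.4% of all genes were called. Without HM1 replicate 1 or 2 the adjusted p was 0.096 and 0.10 for the fall and 0.064 and 0.060 for the rise, at log2 changes of -0.94 and -0.88 for the fall and 1.204 for the rise.

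The knockout lines showed the same dip from lower starting levels. Hmga2 was at 30.51, 16.78 and 29.35 CPM at day 0, at 17.68, 10.93 and 11.97 CPM at day 2 and at 56.88, 80.40 and 37.70 CPM at day 3 in lines 14, 19 and 319. Every line fell and then rose, and line 19 went from the lowest value of all samples to the highest. The fall was -0.92 ± 0.26 (adjusted p = 0.012; without line 319 it was -0.70, with an adjusted p of 0.064, and in HM1-derived lines only -0.70 with 0.099) and the rise 2.08 ± 0.27, 4.24-fold (adjusted p = 4.6e-05, edgeR quasi-likelihood test). Leaving out the day 2 library of line 19 left the rise at 1.92 (adjusted p = 0.00019). The rise was larger in the knockout lines than in the controls by 0.87 ± 0.36 (interval 0.098 to 1.638), a difference that did not pass adjustment (p = 0.0296, adjusted p = 0.56, edgeR quasi-likelihood test) and was 0.71 without that library. For Lin28b the same difference was 0.76 (p = 0.0518, adjusted p = 0.56).

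Hmga1, the other AT-hook gene, behaved differently from Hmga2: it was high at days 0 and 2 and lower at day 3. In the controls it was at 284.9, 244.0 and 300.8 CPM at day 0, at 239.2, 220.5 and 316.9 CPM at day 2 and at 166.7, 154.2 and 264.9 CPM at day 3. Line 1A4 was the highest control at every day, so the days overlapped, but each series was lower after the last step (-0.52, -0.52 and -0.26). This step was not called (-0.41, interval -0.882 to 0.065), nor was it in the knockout lines (-0.53, interval -1.002 to -0.053, adjusted p = 0.079). With the replicate block, which compares each series with itself, both were: -0.43 in the controls (adjusted p = 0.039) and -0.51 in the knockout lines (adjusted p = 0.012, edgeR quasi-likelihood test). Hmga1 is uncertain because the files also list Hmga1b, a near-identical copy on chromosome 11, whose change at the same step in the knockout lines was -0.56 (adjusted p = 0.04), and reads may have been split between the copies.

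The 3 Igf2bp genes moved apart from one another. Igf2bp3 in the controls was at 148.8, 139.4 and 97.98 CPM at day 0, at 198.5, 209.8 and 209.7 CPM at day 2 and at 286.1, 258.7 and 277.6 CPM at day 3. The 3 days did not overlap. The first step was called (0.72 ± 0.22, adjusted p = 0.02), and lost with any 1 control left out (0.50 to 0.86, adjusted p = 0.073 to 0.16) and when only HM1-derived lines were fitted (0.53, adjusted p = 0.13). Line 1A4 was higher at day 2 by 1.09 and the HM1 replicates by 0.42 and 0.59. The second step was not called (0.41, interval -0.058 to 0.882, edgeR quasi-likelihood test). Igf2bp3 in lines 14, 19 and 319 was at 165.5, 171.2 and 106.0 CPM, then 247.9, 134.1 and 141.2 CPM, then 284.5, 313.8 and 154.0 CPM, with neither step called (0.26 and 0.49).

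Igf2bp1, the most abundant of the 3, changed little. It ranged from 620.5 to 815.6 CPM over all 9 control samples, and neither control step was called (-0.13, interval -0.443 to 0.183, and 0.01, interval -0.305 to 0.321). In lines 14, 19 and 319 it was at 664.9, 735.0 and 860.5 CPM at day 0 and at 610.9, 500.2 and 579.9 CPM at day 2. It fell by 0.42 ± 0.15 at that step (adjusted p = 0.036, edgeR quasi-likelihood test), with the larger falls in lines 19 and 319 (-0.56 and -0.57, against -0.12 in line 14). This call was lost in 8 of the alternative fits, among them each one without a control sample and the one without the day 2 library of line 19 (-0.32, adjusted p = 0.077). Igf2bp2 had no called step in either genotype, and its largest change was 0.54 from day 2 to day 3 in the knockout lines (interval 0.103 to 0.966, adjusted p = 0.054), led by line 19 with 1.02 and absent from line 319 with -0.05.

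**Figure D3:**
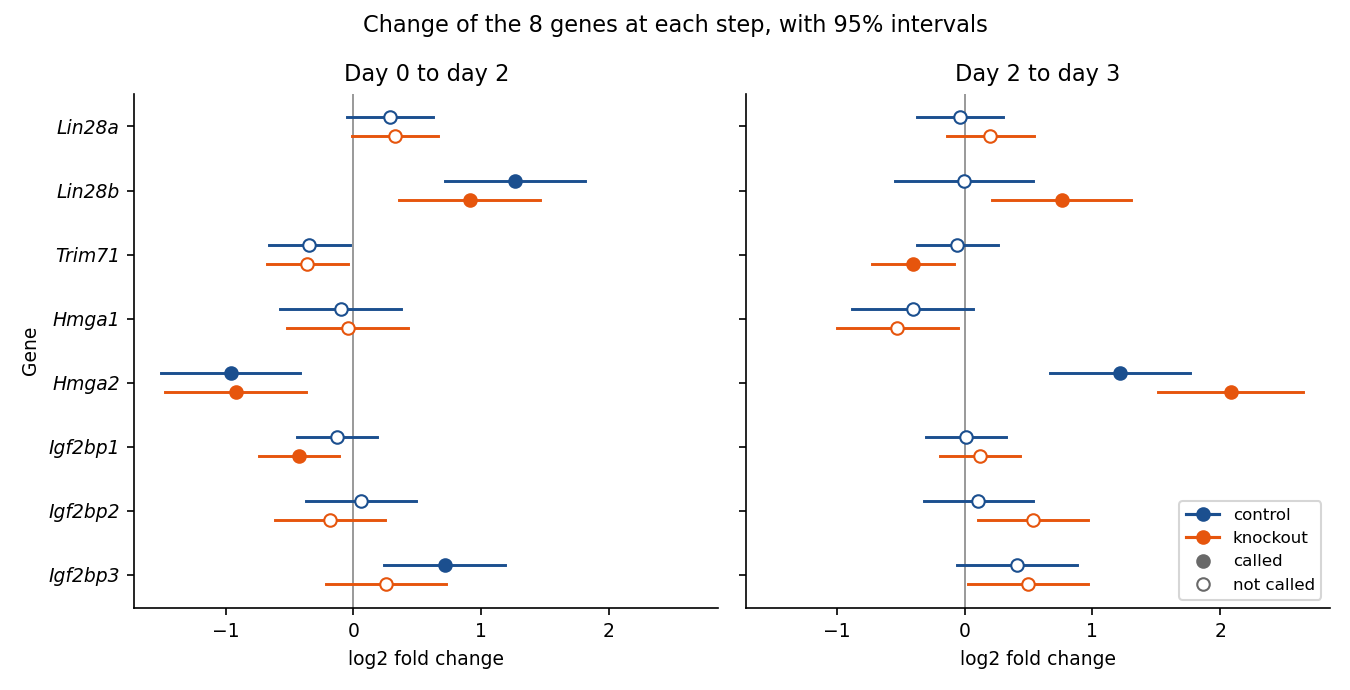
Change of the 8 genes from day 0 to day 2 (left) and from day 2 to day 3 (right) as log2 fold change on the horizontal axis, in control (blue) and knockout (orange) groups of 3 samples; points are estimates, filled where called at an adjusted p below 0.05, and bars are 95% intervals. Hmga2 is called at both steps in both genotypes, with the largest change, 2.08, in the knockout lines from day 2 to day 3.

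The knockout was then set against the control at each day. No member was called at day 0, day 2 or day 3, where 0.854%, 1.6% and 5.19% of all genes were called by the edgeR quasi-likelihood test. At an unadjusted p below 0.05 by that test there were 2, 3 and 0 members, and 1946, 3735 and 4004 of the 18273 genes. DESeq2 called Hmga2 at day 0, Hmga2 and Igf2bp2 at day 2 and no member at day 3, and 3.04%, 7.42% and 11.3% of all genes. Nor was any member called for a difference between genotypes in a step, at a background of 0.0219% from day 0 to day 2 and 0.0383% from day 2 to day 3. There 0 and 1 members had an unadjusted p below 0.05 by the edgeR test, as did 1308 and 1626 of the 18273 genes. DESeq2 called 0 and 0 members at a background of 0.378% and 0.624%. The median log2 difference of the 8 was -0.08, -0.28 and -0.17 at the 3 days, beside 0.01, 0.02 and 0.02 for all genes tested.

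Hmga2 was the member with the largest difference. At day 0 the knockout values (16.78 to 30.51 CPM) lay below the control values (44.20 to 54.56 CPM), and at day 2 again (10.93 to 17.68 against 23.60 to 27.25 CPM), at a mean knockout level of 0.51 and 0.528 of the control. The log2 differences were -0.96 ± 0.26 (interval -1.504 to -0.411, p = 0.00192, adjusted p = 0.11) and -0.92 ± 0.26 (interval -1.47 to -0.366, p = 0.00287, adjusted p = 0.082, edgeR quasi-likelihood test). They were negative in each of the 3 lines against the control of its own background, at -0.79, -1.63 and -0.58 at day 0 and -0.51, -1.18 and -1.09 at day 2 in lines 14, 19 and 319. Neither difference passed the adjustment; DESeq2 gave -0.96 (adjusted p = 0.024) and -0.91 (adjusted p = 0.024), and without line 19 the day 2 value was -0.77 with an adjusted p of 0.032. At day 3 the groups overlapped (37.70 to 80.40 against 55.84 to 64.27 CPM) and the difference was -0.05 (interval -0.59 to 0.49).

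Igf2bp2 was the second. Its day 2 values were 107.8, 97.94 and 94.91 CPM in lines 14, 19 and 319 and 160.0, 183.5 and 139.5 CPM in the controls, again without overlap. The difference was -0.68 ± 0.20 (interval -1.108 to -0.245, adjusted p = 0.096, edgeR quasi-likelihood test; DESeq2 -0.66, adjusted p = 0.042), and each line was lower (-0.67, -0.80 and -0.55). At day 0 the HM1-derived lines 14 and 19 were lower (-0.72 and -0.76) and line 319 was not (0.09). The day 0 difference over all 3 lines was -0.43 (adjusted p = 0.47), and without line 319 it was -0.71 (adjusted p = 0.024), and at day 2 -0.76 (adjusted p = 0.015). With both line 319 and its control 1A4 left out, so that only HM1-derived lines were fitted, Igf2bp2 was not called at either day (-0.73, adjusted p = 0.06, and -0.74, adjusted p = 0.062, edgeR quasi-likelihood test). At day 3 the groups overlapped (-0.25, interval -0.679 to 0.18).

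Fibroblast transcripts were also lower in every knockout sample than in the controls of its own background at the same day. Their sum was 323, 334.2 and 161.6 CPM in the controls at day 0 (HM1 replicates 1 and 2 and 1A4) and 184, 113.3 and 150.9 CPM in lines 14, 19 and 319. At day 0 line 319 lay near its control 1A4, and lines 14 and 19 lay further below HM1. At day 2 the sum was 174.9, 245.1 and 218.1 against 125.9, 109.2 and 91.76 CPM. Of the 11 tested genes of that list, Postn, Acta2 and Tagln were called lower in the knockout at day 2 and at day 3, and none was called at day 0. At day 3 the sum was 268.7, 379.6 and 388.9 against 231.2, 159.2 and 143.3 CPM, and Hmga2 did not differ by more than the spread. The list was uneven: 5 of its 12 genes (Lum, Twist2, Dcn, Mfap5 and Postn) reached at most 4.041 CPM in any sample, while Tagln reached 145.4, Col1a1 97.09, Acta2 85.4 and Col1a2 55.84 CPM and the other 3 reached 20.57 to 40.33 CPM. At most 2 of the 12 genes were at 0 in a sample. Mesendoderm markers (8 genes) were lower in the knockout at day 0: their sum was 55.97 to 110.8 CPM in the controls and 17.52 to 20.54 CPM in the knockout lines, and T, Mixl1 and Foxa2 were called lower. The part of either cell type in the Hmga2 and Igf2bp2 differences was not tested.

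At day 2 the knockout values of 4 of the 8 members lay wholly below the control values, against 11.7% of all genes, and at day 0 those of 1 member, Hmga2, against 9.7%. Besides Hmga2 and Igf2bp2, the day 2 members were Lin28b (54.21 to 100.3 against 114.7 to 121.8 CPM) and Igf2bp1 (500.2 to 610.9 against 625.3 to 767.2 CPM). Their differences were -0.67 (interval -1.215 to -0.125, adjusted p = 0.16) and -0.29 (interval -0.608 to 0.019, adjusted p = 0.27, edgeR quasi-likelihood test). Line 19 had the largest difference in all 4 genes at day 2, and without its day 2 library they were -0.77 for Hmga2, -0.62 for Igf2bp2, -0.46 for Lin28b and -0.20 for Igf2bp1. No member lay wholly above the controls at day 0 or day 2, against 8.06% and 9.94% of genes, and none on either side at day 3, where 17.6% of genes lay below and 17.6% above.

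Lin28a, Trim71, Hmga1 and Igf2bp3 had no difference past an unadjusted p of 0.05 at any day. For Lin28a the 95% intervals were -0.345 to 0.33 at day 0, -0.305 to 0.37 at day 2 and -0.067 to 0.608 at day 3, and for Trim71 -0.113 to 0.522, -0.128 to 0.507 and -0.475 to 0.16. Hmga1 and Igf2bp3 were less precise, with bounds out to -0.689 and -0.739. The 12 intervals of these 4 genes all lay between -0.739 and 0.661.

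The 3 knockout lines did not move as one. Lines 14 and 19 were set against the same HM1 samples, so their differences are not independent. At day 0 line 319 had the opposite sign to both in Lin28a, Lin28b, Hmga1, Igf2bp1 and Igf2bp2 at day 0. Hmga1 showed the steadiest contrast: in line 319 it was lower than in 1A4 (-0.68, -0.71 and -0.83 at days 0, 2 and 3), and in lines 14 and 19 it was higher than in HM1 by 0.08 to 0.23. Line 1A4, 1 sample per day, was high in Hmga1 (316.9 and 264.9 CPM at days 2 and 3). Line 319 (193.3 and 149.3 CPM) lay nearer the HM1 values (220.5 to 239.2 and 154.2 to 166.7 CPM) at those days. Lin28b at day 0 differed by -1.22 in line 319 and by 0.13 and 0.10 in lines 14 and 19. The 95% interval of a line cannot be given, because each line was 1 sample per day.

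**Figure D4:**
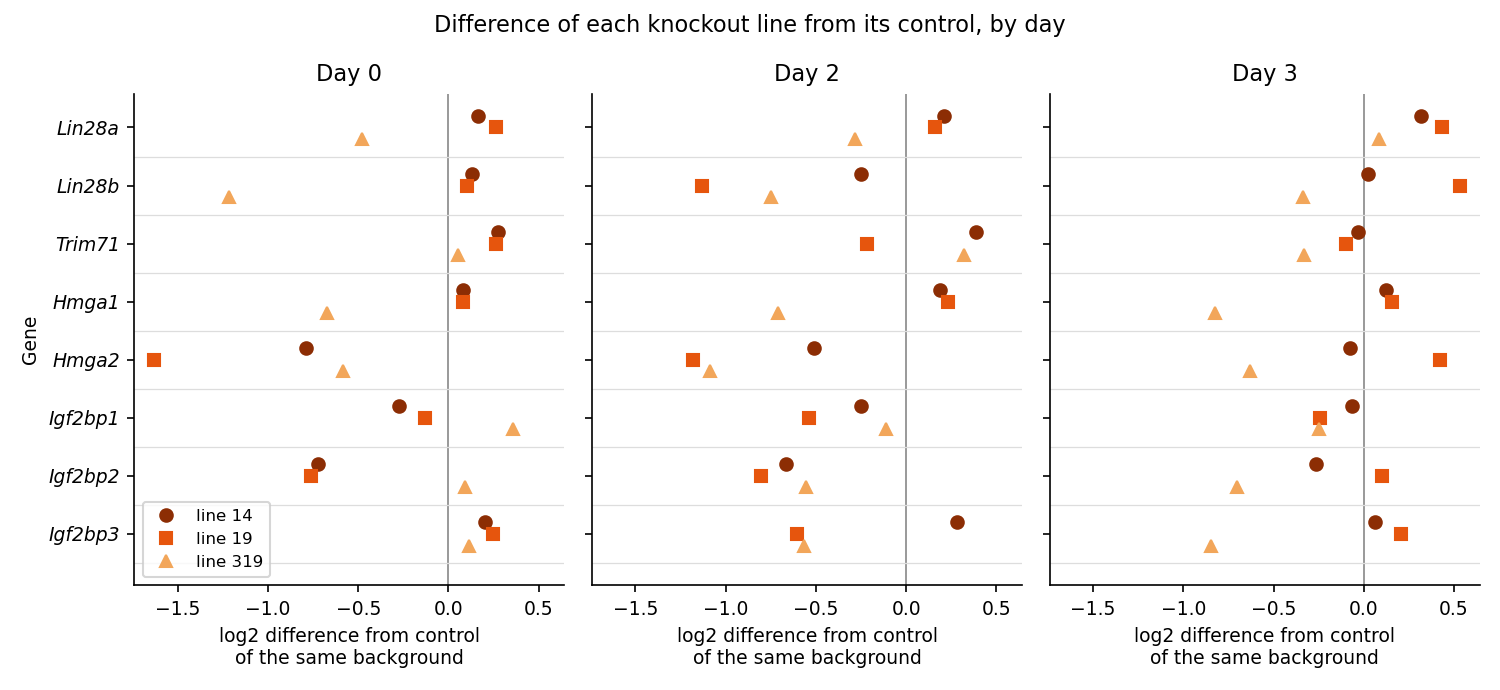
log2 difference of each knockout line from the controls of its own genetic background (horizontal axis) for the 8 genes at days 0, 2 and 3; circles are line 14 and squares line 19 against the mean of the HM1 replicates, and triangles line 319 against 1A4. Hmga2 lies left of 0 in all 3 lines at days 0 and 2, and the triangle of Hmga1 lies at -0.675, -0.712 and -0.825.

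Ratios within a family do not depend on how a library was scaled. Of the summed Lin28a and Lin28b level per kilobase, Lin28b made up 5.15%, 5.64% and 5.80% in the day 0 controls and 10.70%, 11.34% and 9.39% in the day 2 controls. The share was 8.25%, 4.79% and 6.94% in lines 14, 19 and 319 at day 2, below all 3 controls, and 9.46%, 12.08% and 7.18% at day 3, where the controls had 12.18%, 10.55% and 9.41%. Line 19 had not changed its share by day 2 (4.85% at day 0) and had reached that of the controls by day 3. Hmga2 made up 8.35% ± 1.39 (SD, n = 3) of the Hmga pair in the day 0 controls, 4.79% ± 0.76 at day 2 and 13.77% ± 3.36 at day 3, and 5.09% ± 2.15, 2.74% ± 0.67 and 14.47% ± 3.58 in the knockout lines. Its day 2 values did not overlap between genotypes (1.98% to 3.26% against 3.92% to 5.37%).

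Within the Igf2bp family Igf2bp1 declined and Igf2bp3 gained in share in both genotypes. Igf2bp1 went from 60.00% ± 2.21 at day 0 to 50.82% ± 1.25 and 45.86% ± 1.92 in the controls and from 61.21% ± 4.79 to 53.14% ± 4.68 and 46.62% ± 6.89 in the knockout lines. Igf2bp3 went from 19.41% ± 1.79 to 34.88% ± 2.83 and from 23.38% ± 6.56 to 35.15% ± 4.23. Igf2bp2 kept about the same share in the controls (20.58% at day 0 and 19.26% at day 3) and was lower in the knockout lines at day 0 (13.68% to 17.57% against 19.85% to 21.54%) and day 2 (14.35% to 17.92% against 18.65% to 20.95%). These shares were chosen after the levels had been seen, and they were not tested.

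**Figure D5:**
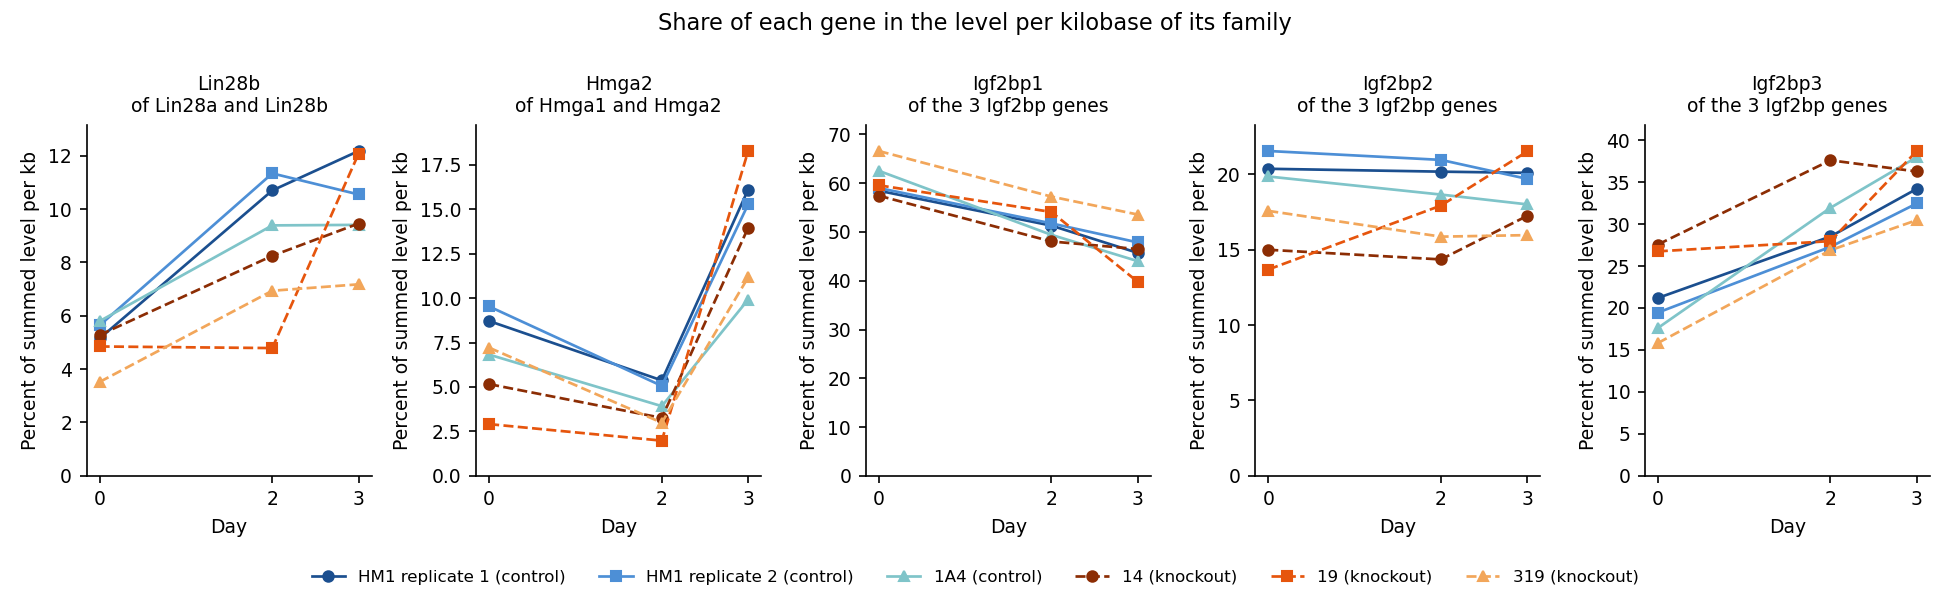
Share of a gene in the summed level per kilobase of its family, in percent (vertical axis, from 0), by day; each line of points is 1 cell line or replicate, solid blue for controls and dashed orange for knockouts. The share of Lin28b at day 2 is 4.79% to 8.25% in the knockout lines and 9.39% to 11.34% in the controls.

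Over the 18 samples, which share days and lines, Lin28b went most closely with Igf2bp3 (Pearson r of log2 CPM = 0.843) and Lin28a (0.760), and Hmga2 with Igf2bp2 (0.718). Lin28a and Igf2bp1 ran opposite (-0.740), as did Lin28b and Trim71 (-0.659). Among 10748 other genes the nearest patterns were those of Pde7a for Lin28b (0.970), Prss23 for Hmga2 (0.950), Vps8 for Igf2bp3 (0.945), Spin1 for Trim71 (0.929), Grk6 for Hmga1 (0.880), Gne for Lin28a (0.864), Map4 for Igf2bp1 (0.863) and Tnfaip1 for Igf2bp2 (0.823). The second and the third were Mtx3 and Ice2, Pik3c2b and Kirrel, Rsrc1 and Poc1b, Map2k1 and Glul, Entr1 and Nudt19, Pclaf and Gtf2i, Grb2 and Fermt2, and Peli1 and Specc1, in the same order of members. These correlations are descriptions over samples that share 3 days.

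The machinery around let-7 was measured through a list of 19 genes of microRNA processing and silencing, of which 18 were tested. None was called between genotypes at any day. In the controls 4 of the 18 rose and 3 fell from day 0 to day 2 and 1 rose and 3 fell from day 2 to day 3, shares near the 35.2% and 21.4% of all genes called at these steps. Ago4, an Argonaute, was the gene with the largest change, rising by 1.81 and 1.99 (adjusted p = 0.0012 and 0.00056) from a low level of 0.51 CPM, and Prkra, a cofactor of Dicer, rose by 1.32 (adjusted p = 0.00083). Tarbp2, the other Dicer cofactor, fell by 0.66 at the first step (adjusted p = 0.014) and Tnrc6c, a GW182 protein, fell by 0.70 at the second (adjusted p = 0.003, edgeR quasi-likelihood test), having risen by 0.67 at the first (adjusted p = 0.0023). The summed level of the list was 2519 CPM in line 19 at day 2 and 3559 to 3988 CPM in the other day 2 samples. Of 8 genes listed as let-7 host transcripts, 3 (Huwe1, Rnf157 and Tlnrd1) were tested and none was called between genotypes. Rnf157 rose by 1.61 in the controls at the first step (adjusted p = 0.00012) and Tlnrd1 by 0.99 at the second (adjusted p = 0.009, edgeR quasi-likelihood test). Whether Rnf157 and Tlnrd1 hold a let-7 gene was not checked, so their rises are not read as changes of let-7 hosts.

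Of 30 let-7 targets other than the 8 genes, 22 held a let-7 match. Between genotypes 1, 1 and 2 of the 30 were called at days 0, 2 and 3, beside 0.854%, 1.6% and 5.19% of all genes. Prtg, a receptor of the immunoglobulin superfamily, was lower in the knockout at day 0 (-1.62 ± 0.25, adjusted p = 0.0052), the only 1 of 30. Arid3a, a DNA-binding protein, was the only one at day 2, also lower (-0.87 ± 0.21, adjusted p = 0.049, edgeR quasi-likelihood test). At day 3 Myc was higher by 2.10 ± 0.28 (adjusted p = 0.0017), with 22.62 to 42.26 CPM in the knockout lines against 6.137 to 10.05 CPM, and Ccnd2, a D-type cyclin, by 1.92 ± 0.46 (adjusted p = 0.028). The list's median log2 difference was -0.06, -0.14 and 0.19 at the 3 days. Each of these calls was lost without 1 or more of the controls: without HM1 replicate 2 the adjusted p was 0.094 for Prtg, 0.25 for Arid3a, 0.063 for Myc and 0.22 for Ccnd2, and Arid3a also lost it without the day 2 library of line 19 (-0.69, adjusted p = 0.074).

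In the controls 9 of these 30 targets rose and 4 fell from day 0 to day 2, where 35.2% of all genes were called, and 5 rose and 5 fell at the next step, where 21.4% were. Fign rose by 1.74 at the first step (adjusted p = 0.00013). Prtg rose by 3.22 (adjusted p = 7e-07) and Gdf6, a BMP-family ligand, by 3.20 (adjusted p = 9.6e-05) at the second, where Mycn fell by 2.11 (adjusted p = 0.00068, edgeR quasi-likelihood test). The rise of Gdf6 started from a low level of 0.23 CPM. A wider view was taken over all tested genes by their number of let-7 matches, the 8 members left out. The 176 genes with at least 2 matches had a median log2 difference between genotypes of 0.00, -0.13 and 0.05 at days 0, 2 and 3, and the 13698 genes with none 0.00, 0.01 and 0.02. From day 0 to day 2 the median change was 0.17 for the 176 genes and 0.01 for those with none in the controls, and 0.05 and 0.07, in the other order, in the knockout lines. From day 2 to day 3 it was 0.11 and 0.00 in the controls and 0.32 and 0.03 in the knockout lines. The median 3′ UTR of the 176 genes was 3538 bases long, against 934 bases, so number of matches and length cannot be told apart here.

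Of 8 genes known as Trim71 targets none was called between genotypes. At the first control step Egr1 fell by 2.48 (adjusted p = 0.011) and Plxnb2 rose by 0.75 (adjusted p = 0.0044, edgeR quasi-likelihood test). Hoxa5 rose by 7.87 with retinoic acid (adjusted p = 7.9e-08, same test), from a mean of 0.058 CPM in the day 2 controls, so the size of this rise is uncertain.

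The insulin-like growth factor axis holds the best-known cargo of the IGF2BP proteins. Of its 12 genes, 2 were called lower in the knockout at day 0, where 0.854% of all genes were called in either direction. Igfbp3, a secreted binding protein, was at 82.82 to 147 CPM in the controls and 18.76 to 31.4 CPM in the knockout lines (-2.16 ± 0.20, adjusted p = 7.5e-05), and this call held in every alternative fit run. Igfbp4 was lower as well (-1.27 ± 0.20, adjusted p = 0.0052; without HM1 replicate 2, -1.09 and 0.12). At day 2 Igfbp3 was lower (-1.09, adjusted p = 0.014; without HM1 replicate 1 or 2, 0.17 and 0.13), and at day 3 Igf1 was lower (-1.44, adjusted p = 0.019; without HM1 replicate 1, 2 or line 1A4, 0.13, 0.17 and 0.057, edgeR quasi-likelihood test). Igf2 itself was at 19.31 to 49.4 CPM in the controls and 5.966 to 16.38 CPM in the knockout lines at day 0 and was not called (-1.60, adjusted p = 0.11). The list's median was -0.96 at day 0, with 11 of 12 genes negative, and the fibroblast list, whose sums are given above, had 10 of 11 negative at that day. In the controls Igfbp5 rose by 3.60 (adjusted p = 6.1e-05), Irs1 rose by 1.89 (adjusted p = 0.00029) and Igfbp3 fell by 1.57 (adjusted p = 3.2e-05, edgeR quasi-likelihood test) from day 0 to day 2. Igf1 rose by 5.13 (adjusted p = 3.9e-07, same test) from day 2 to day 3, from a low level of 0.15 CPM.

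Proteins that form a complex with IGF2BP1 (5 genes) all had a negative change at both control steps. Dhx9, a helicase, fell by 0.95 (adjusted p = 0.006) and Syncrip by 0.55 (adjusted p = 0.047) at the first, and Hnrnpu by 0.69 (adjusted p = 0.0061), Syncrip by 0.71 (adjusted p = 0.02) and Ybx1 by 0.42 (adjusted p = 0.041) at the second. Between genotypes only Hnrnpu was called, at day 3, where 5.19% of all genes were. It was higher in the knockout by 0.63 ± 0.16 (adjusted p = 0.036, edgeR quasi-likelihood test). Without HM1 replicate 1, 2 or line 1A4 the adjusted p was 0.21, 0.26 and 0.10. Of 7 other high mobility group genes only Hmgb1 was called, also at day 3, higher by 0.67 ± 0.17 (adjusted p = 0.036; without the same 3 controls, 0.17, 0.27 and 0.12). In the controls Hmgn5 rose by 1.37 (adjusted p = 0.00056) and Hmgb1 fell by 0.45 (adjusted p = 0.049) at the first step, and Hmgn3 rose by 1.25 (adjusted p = 0.011) and Hmgb3 by 0.57 (adjusted p = 0.024) at the second.

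On mm10 the transcripts that were read span chr4:134003330-134018841 (Lin28a), chr10:45376620-45470201 (Lin28b), chr9:114507133-114564369 (Trim71), chr17:27556668-27563663 (Hmga1), chr10:120361275-120476469 (Hmga2), chr11:95957163-96005940 (Igf2bp1), chr16:22059055-22163019 (Igf2bp2) and chr6:49085223-49214957 (Igf2bp3), Hmga1 on the plus strand and the others on the minus strand. Exons of the representative transcripts of Lin28a, Trim71, Hmga1, Hmga2, Igf2bp1 and Igf2bp3 overlap a gene on the opposite strand (Gm13061, C130032M10Rik, AI413582, 1700006J14Rik, Gm29202 and Malsu1), and that of Igf2bp1 also Mir3063 on the same strand. The libraries were stranded, and whether counting used the strand is not given in the sources used here. Lin28b and Igf2bp2 had no such overlap.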

How the data were processed

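Poly(A) messenger RNA of 18 biological samples was sequenced in 4 technical libraries each (72 libraries). The authors deposited raw counts per Ensembl transcript. The submitters' processing notes name mm10, bcl2fastq 2.17.1.14, STAR 2.4.0k, SAMtools and HTSeq, without settings. Technical libraries were summed, since their counts agreed within sampling noise (chi-square per degree of freedom 1.009 to 1.028). Of 110379 transcript IDs, 108214 matched GENCODE M21 (GRCm38), and each gene was read from the transcript with the most counts. The remaining IDs held 1.44% to 2.46% of counts.

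edgeR 4.0.16 (R 4.3.3) was fitted once to 18273 genes that passed filterByExpr, with TMM scaling, 6 groups and a covariate that separates HM1 and its derivatives from 1A4 and 319 (11 residual degrees of freedom). Calls needed a Benjamini-Hochberg adjusted p below 0.05 over all genes. Values are given as CPM on TMM-scaled libraries, and correlations used log2(CPM + 0.5). DESeq2 1.42.0 was an alternative. The fits were also run on simulated independent counts. These had no differences between lines and no correlation over days, so they do not test the p-values under such structure. Other genes were named by rule: the called genes of each list between genotypes, and up to 4 per list with the largest control steps. Series follow the same lines over days; 16 of 18 pairs of samples of a series correlated above 0.1 in their deviations (-0.088 to 0.4). The members and lists were chosen with earlier results of these data known.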

Additional observations from a re-analysis of the deposited data

Results flagged for a closer look

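In 10 cases the 2 HM1-derived knockout lines lay on one side of their control and line 319 on the other side of line 1A4; each knockout line was 1 sample per day, and the difference between backgrounds was not tested. For Lin28a the log2 difference of line 319 was -0.481 at day 0 and -0.281 at day 2, where lines 14 and 19 were higher. For Lin28b its difference was -1.217 at day 0 and -0.339 at day 3, again with lines 14 and 19 higher. Hmga1, the architectural chromatin gene, had -0.675, -0.712 and -0.825 at days 0, 2 and 3, the only member with the contrast at every day. Igf2bp3 at day 3 had -0.848. In 2 cases line 319 was the higher one: Igf2bp1 at day 0 with 0.359 and Igf2bp2 at day 0 with 0.092.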

How the results depend on the processing

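With 3 samples per group, calls near the threshold moved with single samples. DESeq2 called 1 member between genotypes at day 0 and 2 at day 2. For the control step from day 2 to day 3, the HM1-derived lines alone and the replicate block each gave 2 called members, and for the knockout step from day 0 to day 2 the HM1-derived lines alone gave 0. The replicate block, which pairs samples of one series over days, changed no other count of members called. Leaving out each replicate gave 0 to 1 members at day 0, 0 to 1 at day 2, 1 to 4 for the control step from day 0 to day 2, 0 to 2 for the next, and 1 to 5 for the knockout step from day 2 to day 3. Log2 values near 0 turned sign, and the cause was not tested. In the HM1-derived lines alone the genotype difference was 0.219 for Lin28a, 0.128 for Lin28b and 0.088 for Hmga1 at day 0, 0.207 for Hmga1 at day 2, and 0.130 for Hmga1, 0.181 for Hmga2 and 0.125 for Igf2bp3 at day 3; the knockout step from day 0 to day 2 was 0.034 for Igf2bp2, and its difference between genotypes -0.035 for Lin28a. With Hmga1b added, a choice made after seeing the data, Hmga1 was 0.019 at day 0, 0.069 at day 2 and 0.006 for the knockout step from day 0 to day 2. With all transcripts added up, Igf2bp1 was 0.010 at day 0 and -0.036 for the control step from day 2 to day 3, Lin28a -0.020 at day 2, and the difference in the first step 0.014 for Trim71. With no filter, Lin28a was -0.008 at day 2 and Igf2bp1 -0.008 for the control step from day 2 to day 3. Without the day 2 library of line 19, Igf2bp1 was 0.007 at day 0 and Lin28a -0.002 at day 2, and the step difference was 0.149 for Trim71 and -0.047 for Hmga1 from day 0 to day 2 and -0.130 for Igf2bp3 from day 2 to day 3. Leaving out each replicate, the day 0 values ranged from -0.12 to 0.22 for Lin28a, -0.468 to 0.037 for Lin28b, -0.255 to 0.167 for Hmga1 and -0.19 to 0.099 for Igf2bp1. At day 2 they ranged from -0.031 to 0.199 for Lin28a and -0.227 to 0.206 for Hmga1, and at day 3 from -0.13 to 0.325 for Lin28b, -0.389 to 0.201 for Hmga1, -0.321 to 0.174 for Hmga2 and -0.32 to 0.072 for Igf2bp3. The control step from day 2 to day 3 ranged from -0.053 to 0.07 for Lin28b, -0.155 to 0.0 for Trim71 and -0.038 to 0.046 for Igf2bp1, and the knockout step from day 0 to day 2 from -0.307 to 0.033 for Igf2bp2. Differences between genotypes in the first step ranged from -0.021 to 0.113 for Lin28a, -0.174 to 0.193 for Trim71, -0.027 to 0.16 for Hmga1 and -0.069 to 0.257 for Hmga2, and in the second from -0.167 to 0.011 for Hmga1 and -0.249 to 0.296 for Igf2bp3.

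Counts over all genes moved more. Between genotypes 156 genes were called at day 0 (DESeq2 555, HM1-derived lines alone 313, day fitted alone 244, without the day 2 library of line 19 378, and 18 to 406 leaving out each replicate), 292 at day 2 (1356 by DESeq2, 185 with no background term, 0 with the day fitted alone, 22 to 1373) and 948 at day 3 (2063, 516, 2546, and 2994 without that library, 17 to 2020). For the steps, leaving out each replicate gave 2833 to 8900 of 6439 and 1215 to 6361 of 3918 in the controls (6094 without that library), and 3813 to 7712 of 6561 for the first knockout step. Step differences numbered 4 (DESeq2 69, 0 to 10 leaving out each replicate) and 7 (114, 1 to 133).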
